A study of Homo sapiens with 40 samples.

Results

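The 10 genes described here carry out the uptake, binding, breakdown and sensing of retinoic acid: the cytochrome P450 enzymes CYP26A1 and CYP26B1, the retinaldehyde reductase DHRS3, the receptors RARA, RARB, RARG and RXRA, the binding proteins CRABP1 and CRABP2, and the retinol transporter STRA6. They were taken by exact gene name from a count table of 44584 rows, and all 10 names were found. The set was chosen by measured values of CYP26A1, which fell most with HRG in BT474 at 12 h, so values of the BT474 libraries treated with HRG for 12 h are given below as a description, with no test for any of the 10 genes. The same holds for CYP26A1 in every comparison that uses the 12 h vehicle libraries of BT474. BT474 is a breast cancer epithelial line with amplified HER2, and BT474R is BT474 clone 5, a single clone raised by growing BT474 with trastuzumab, the antibody against HER2, and resistant to it. Cells of both lines were starved of serum and collected at once (T0) or after 1 h, 12 h or 24 h of treatment. Treatment was vehicle (water), EGF, a ligand of EGFR, or HRG, a ligand of HER3 and HER4, in fresh starvation medium. Each line thus has 10 groups and the series has 20, with 2 RNA-seq libraries per group and 40 in all. The comparisons ask how the ligands change expression over time in each line, and whether the lines respond alike. Nothing in the labels says that the paired libraries came from separate cultures, so p-values measure only the spread between these samples, which may be technical.

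Retinol enters cells through transporters such as STRA6, is oxidized to retinaldehyde and then by ALDH1A enzymes to retinoic acid, and DHRS3 turns retinaldehyde back to retinol. Retinoic acid is carried by the CRABP proteins, binds RAR partners of RXR on DNA, and is oxidized for clearance by CYP26 enzymes. CYP26A1, DHRS3 and RARB are known targets of the receptors themselves, which makes them feedback genes of the pathway, and retinoids are known to hold back growth of many luminal breast cancer cells.

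The receptor pair is known to bind direct repeats of a hexamer, classically separated by 5 bases. The RefSeq promoters of the 10 genes, taken as 250 bases before to 50 bases after each start site on GRCh38.p14, were searched on either strand for direct repeats of 4 hexamers, namely AGGTCA, the related hexamer AGTTCA, the further variant hexamer GGGTCA, and the last variant hexamer GGTTCA, each allowed at either place, with spacers of 5, 2 or 1 bases. All 10 genes had an entry, with 23 promoters in all. Only 2 of these promoters held such a repeat, 1 of RARB and 1 of CYP26A1, each with the 5-base spacer. Among all 35116 promoters of the table, 31 (0.0883%) held a repeat with a 5-base spacer, 14 (0.0399%) one with a 2-base spacer and 46 (0.131%) one with a 1-base spacer. The 250 bases upstream of these 2 start sites are printed because they are the promoters of a receptor and of the enzyme that led the selection. Capitals mark the repeat, which starts 53 bases before the RARB start site on the gene's own strand (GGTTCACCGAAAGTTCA) and reaches from 90 bases before the CYP26A1 start site on the opposite strand (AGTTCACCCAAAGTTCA when read there). A match of letters is a description and not a bound site.
RARB, chr3:25428013-25428262, plus strand: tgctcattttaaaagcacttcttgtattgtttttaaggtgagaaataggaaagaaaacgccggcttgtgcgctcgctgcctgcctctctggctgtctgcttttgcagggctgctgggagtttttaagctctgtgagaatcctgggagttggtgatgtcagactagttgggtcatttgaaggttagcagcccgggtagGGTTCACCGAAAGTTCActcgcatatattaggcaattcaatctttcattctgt
CYP26A1, chr10:93073643-93073892, plus strand: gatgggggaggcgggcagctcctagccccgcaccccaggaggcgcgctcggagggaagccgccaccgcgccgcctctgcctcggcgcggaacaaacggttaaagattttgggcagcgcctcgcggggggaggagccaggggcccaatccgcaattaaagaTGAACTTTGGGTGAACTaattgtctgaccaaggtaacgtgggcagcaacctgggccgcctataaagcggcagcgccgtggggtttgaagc

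Total counts ranged from 19200632 to 29098915 in BT474 and from 16794594 to 33387936 in BT474R. Levels are given as CPM, counts per 1000000 counts of the TMM-scaled library size, and 3 counts in a library, taken as the floor of detection, correspond to 0.101 to 0.147 CPM in BT474 and 0.0929 to 0.18 CPM in BT474R. No replicate pair was identical, and the replicate pair that differed most was HRG-BT474R at 24 h, with a median chi-square per gene of 2.56 against 0.595 for the closest pair and 0.455 for counting noise alone. The next was the BT474R vehicle pair at 24 h, at 1.58. Luminal epithelial markers summed to 11662 to 15513 CPM in BT474 and to 10699 to 17161 CPM in BT474R, with ERBB2, the gene of HER2, the highest at 5994 to 10546 CPM over both lines. GATA3, a luminal transcription factor, was at 307 to 546 CPM in BT474 and at 10.6 to 55.5 CPM in BT474R. Of 3 leukocyte markers, PTPRC and CD3E stayed at or under 0.0956 CPM in every library and CD68 was at 1.2 to 3.57 CPM in BT474 and 1.06 to 5.09 CPM in BT474R. Of 3 fibroblast markers, COL1A2 and PDGFRB stayed at or under 0.155 CPM and COL1A1 was at 75.0 to 105 CPM in BT474 and 169 to 295 CPM in BT474R. Of 2 endothelial markers, PECAM1 stayed at or under 0.218 CPM and VWF was at 12.8 to 23.0 CPM in BT474 and 8.61 to 15.8 CPM in BT474R. The 3 basal epithelial markers summed to 3.06 to 10.3 CPM in BT474 and 1.19 to 5.06 CPM in BT474R. The part of other cell types in the results below was not tested. In such bulk RNA, fewer cells that express a gene and less RNA per cell cannot be told apart.

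No gene of the 10 passed at 1 h, and several did at 12 h and 24 h. At 1 h, the quasi-likelihood test of edgeR, with p adjusted over all genes by Benjamini-Hochberg, called 0 of the 10 genes for either ligand in either line, where the share of all genes called was 2.19% for EGF and 2.77% for HRG in BT474, and 0.457% and 0.169% in BT474R. At an unadjusted p under 0.05 the counts were 1, 2, 0 and 0 in the same order, and DESeq2 called 0 in each. CRABP2 was called higher in 6 of 11 tested ligand comparisons, RXRA lower in 5, RARA and DHRS3 higher in 4 each, and CYP26B1, RARB and RARG in none of 11 by edgeR. In EGF-BT474 at 12 h, 3 of the 9 genes tested passed, against 16.0% of all genes, and at 24 h 4 of 10 passed, against 16.4%. In HRG-BT474 at 24 h, 4 of 10 passed, against 24.1%. In EGF-BT474R, 4 of 10 passed at 12 h, against 12.0%, and 6 of 10 at 24 h, against 17.3%. In HRG-BT474R, 2 of 10 passed at 12 h, against 4.12%, and 1 of 10 at 24 h, against 2.78%. In HRG-BT474 at 12 h, the comparison the selection used, 25.8% of all genes passed, and the 10 genes are not counted. The median log2 fold change of the 10 genes lay furthest from 0 in EGF-BT474R at 24 h, at 0.44 against -0.01 for all genes tested. EGF and HRG at 1 time point share their vehicle libraries, so the columns for the 2 ligands are not independent.

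**Figure D1:**
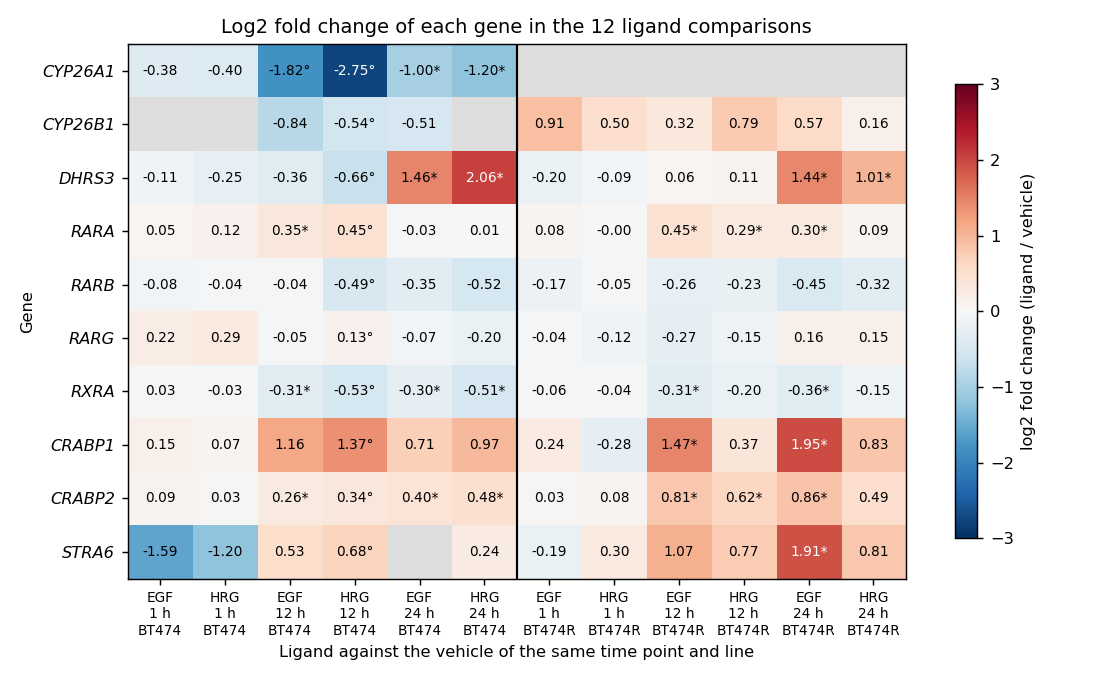
Log2 fold change of each of the 10 genes (rows) against the vehicle of the same time point in the 12 ligand comparisons (columns, BT474 to the left of the line, BT474R to the right). An asterisk marks an adjusted p under 0.05 in edgeR's quasi-likelihood test, a degree sign a value that was not tested, and grey a comparison with 3 counts or fewer in a group or at the floor of detection in both. DHRS3 rose in all 4 comparisons at 24 h, and no gene passed at 1 h.

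CYP26A1 clears retinoic acid. In BT474 its vehicle libraries at 12 h held 2.04 and 1.84 CPM, the highest group mean of the line (1.94 ± 0.140, SD, n = 2), and those with HRG at 12 h held 0.388 and 0.208 CPM, the lowest. The raw counts behind them were 59 and 46 against 9 and 6, so few reads stand behind even the highest level. The log2 fold change was -2.75 ± 0.35 (SE) with HRG and -1.82 ± 0.32 with EGF, whose libraries held 0.573 and 0.528 CPM, and neither is tested because these vehicle libraries led to the choice of the gene. The libraries at 24 h were not used by that choice. There the vehicle libraries held 1.46 and 0.797 CPM, those with EGF 0.634 and 0.453 CPM and those with HRG 0.370 and 0.615 CPM. Every ligand library lay below both vehicle libraries. The fall was 2.00-fold with EGF (log2 -1.0 ± 0.35, edgeR adjusted p = 0.0444) and 2.30-fold with HRG (log2 -1.20 ± 0.35, edgeR adjusted p = 0.00908). Without vehicle replicate 1 it was -0.54 with EGF (edgeR adjusted p = 0.476) and -0.74 with HRG (edgeR adjusted p = 0.262), so both calls rest on that library. The EGF call was also lost without either EGF library (-1.27 and -0.81, edgeR adjusted p = 0.0732 and 0.214), and the HRG call without HRG replicate 1 (-0.86, edgeR adjusted p = 0.172). In other settings with all libraries kept, the EGF call was lost in 3 of 7, among them DESeq2 (log2 -1.03, DESeq2 adjusted p = 0.117). At 1 h the log2 fold changes were -0.38 ± 0.28 with EGF and -0.40 ± 0.30 with HRG (edgeR adjusted p = 0.726 and 0.676), from vehicle libraries at 1.37 and 1.43 CPM, EGF at 1.16 and 1.02 and HRG at 1.04 and 1.10. Of the 9 pairs of neighbours in the order of the 10 group means in BT474, 6 overlapped in their libraries. In BT474R, CYP26A1 had 0 to 4 counts in every library, and no fold change is given.

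CYP26B1, the second clearing enzyme, was close to the floor of detection in both lines. It had 0 to 5 counts per library in BT474 and 2 to 10 in BT474R, with the highest library an EGF-BT474R library at 1 h at 0.389 CPM, whose partner held 0.0816 CPM. All 9 neighbouring pairs of group means overlapped in each line, and no ligand comparison passed (edgeR adjusted p from 0.11 up). A ligand effect on this gene was not detectable at this depth.

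DHRS3, which removes retinaldehyde before it can become retinoic acid, rose with both ligands at 24 h in both lines. In BT474 at 12 h the vehicle libraries held 2.90 and 2.76 CPM, EGF 1.89 and 2.59 and HRG 1.94 and 1.74. These give log2 fold changes of -0.36 ± 0.20 with EGF (edgeR adjusted p = 0.261) and -0.66 ± 0.20 with HRG, the latter untested. At 24 h the vehicle libraries had come down to 1.41 and 2.09 CPM while EGF held 5.33 and 4.48 and HRG 7.78 and 7.29. The groups did not overlap, and DHRS3 rose 2.75-fold with EGF (log2 1.46 ± 0.19, edgeR adjusted p = 1.94e-07) and 4.17-fold with HRG (log2 2.06 ± 0.17, edgeR adjusted p = 4.95e-12). The change of the EGF effect from 12 h to 24 h was itself called (log2 1.82 ± 0.28, edgeR adjusted p = 2.73e-04), against 0.517% of all genes. Both calls at 24 h held with each library left out.

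In BT474R, DHRS3 started 10.9-fold higher and fell in vehicle. It held 24.3 and 26.5 CPM at T0, 18.0 and 19.9 in vehicle at 12 h and 12.0 and 12.6 in vehicle at 24 h, a fall of 2.05-fold from T0 to 24 h (log2 -1.04 ± 0.12, edgeR adjusted p = 1.10e-05). With EGF at 24 h it held 30.6 and 36.1 CPM and with HRG 21.1 and 28.0. The EGF libraries thus stood above both T0 libraries, while the HRG libraries lay on either side of them. Against vehicle the rise was 2.71-fold with EGF (log2 1.44 ± 0.12, edgeR adjusted p = 1.27e-08) and 2.01-fold with HRG (log2 1.01 ± 0.12, edgeR adjusted p = 8.03e-05). The HRG call was lost in a fit of only the 4 libraries compared (log2 0.99, edgeR adjusted p = 0.828). At 12 h the ligand libraries held 20.5 and 19.1 CPM with EGF and 20.3 and 21.0 with HRG, and neither difference passed (log2 0.06 ± 0.12 and 0.11 ± 0.12, edgeR adjusted p = 0.816 and 0.725). The genes whose mean log2 CPM over the 10 groups of a line ran most like that of DHRS3 were SIRPA, ALG1, PTGS1, SAP30 and LINC00578 in BT474 (Pearson's r from 0.87 to 0.94, 13807 genes compared) and HMGB1, NUP205, HNRNPA1, SHLD2P3 and B4GALT4 in BT474R (r from 0.89 to 0.93, 13680 genes). No gene was on both lists of 5.

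**Figure D2:**
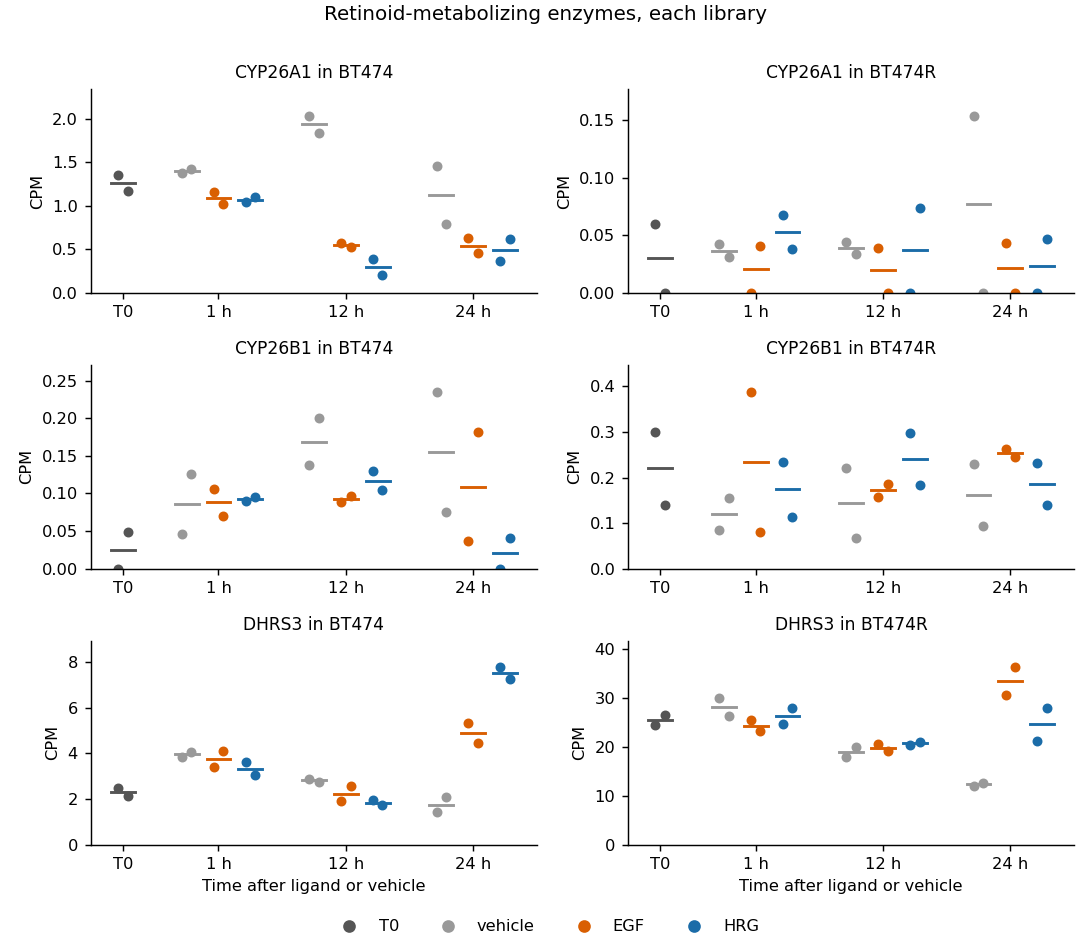
CPM of CYP26A1, CYP26B1 and DHRS3 (rows) in every library of BT474 (left) and BT474R (right) by time after ligand or vehicle, with T0 first. Points are the 2 libraries of a group, horizontal lines their mean, and each panel has its own scale from 0. CYP26A1 is lower with either ligand than with vehicle at 12 h and 24 h in BT474, and DHRS3 is higher with either ligand at 24 h in both lines.

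Among the receptors, RARA rose in 4 ligand comparisons and RXRA fell in 5, while RARB and RARG passed in no ligand comparison. RARA binds retinoic acid and is the most abundant RAR per length in both lines at T0 (20.7 ± 0.536 CPM per kb in BT474 and 8.49 ± 0.326 in BT474R, SD, n = 2). In BT474 at 12 h, vehicle libraries held 51.8 and 54.1 CPM, EGF 67.6 and 68.9 and HRG 75.1 and 72.7. Against T0, at 66.6 and 69.1 CPM, the vehicle libraries had gone down (log2 -0.36 ± 0.06, edgeR adjusted p = 1.56e-05), and the EGF libraries lay between those of T0. The EGF difference from vehicle was log2 0.35 ± 0.06 (edgeR adjusted p = 1.15e-05) and that of HRG 0.45 ± 0.05, untested. At 24 h the 6 libraries of BT474 all lay between 52.0 and 57.6 CPM, and the log2 fold changes were -0.03 ± 0.06 with EGF and 0.01 ± 0.06 with HRG (edgeR adjusted p = 0.816 and 0.913). The EGF effect at 24 h minus that at 12 h was called (log2 -0.38 ± 0.08, edgeR adjusted p = 0.0123), but not without EGF replicate 2 at 12 h, vehicle replicate 1 at 12 h or vehicle replicate 2 at 24 h (-0.36, -0.34 and -0.37, edgeR adjusted p = 0.0977, 0.124 and 0.0669). In BT474R at 12 h, vehicle libraries held 29.4 and 30.9 CPM, EGF 42.4 and 39.96 and HRG 36.1 and 38.4, with log2 fold changes of 0.45 ± 0.07 and 0.29 ± 0.07 (edgeR adjusted p = 1.08e-04 and 0.0182). The HRG call was lost without vehicle replicate 1 or HRG replicate 2 (log2 0.27 in either case, edgeR adjusted p = 0.152 and 0.174). At 24 h the EGF libraries of BT474R were still above vehicle (31.8 and 36.9 against 28.1 and 27.6 CPM, log2 0.30 ± 0.07, edgeR adjusted p = 0.00493), a call lost without EGF replicate 2 (log2 0.20, edgeR adjusted p = 0.127). The HRG libraries of BT474R at 24 h, at 29.0 and 29.5 CPM, gave 0.09 ± 0.07 (edgeR adjusted p = 0.674). The antisense gene RARA-AS1 had at most 6 counts in any library, and RARB-AS1 at most 1. Reads of a gene and its antisense partner cannot be told apart without strand.

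RXRA, the common partner of the RARs, fell with EGF at 12 h and 24 h in both lines and with HRG at 24 h in BT474. In BT474 at 12 h it held 121 and 123 CPM in vehicle, 101 and 98.0 with EGF and 87.4 and 85.7 with HRG, log2 -0.31 ± 0.08 for EGF (edgeR adjusted p = 0.00281) and -0.53 ± 0.08 for HRG, untested. Without EGF replicate 2 the EGF difference at 12 h was -0.28 (edgeR adjusted p = 0.0561). At 24 h it held 130.4 and 120.3 CPM in vehicle, 117 and 86.2 with EGF and 97.7 and 80.2 with HRG. The log2 fold change was -0.30 ± 0.08 with EGF and -0.51 ± 0.08 with HRG (edgeR adjusted p = 0.00326 and 1.46e-06). The EGF libraries were unlike each other, and without EGF replicate 2 the difference was -0.11 (edgeR adjusted p = 0.287). In BT474R the EGF libraries held 89.2 and 93.0 CPM at 12 h against 115 and 111 in vehicle, and 97.9 and 93.2 CPM at 24 h against 123 and 121 (log2 -0.31 ± 0.07 and -0.36 ± 0.07, edgeR adjusted p = 0.00349 and 6.64e-04). The call at 12 h was lost without EGF replicate 1 (-0.29, edgeR adjusted p = 0.0577) or vehicle replicate 1 (-0.27, edgeR adjusted p = 0.0701). With HRG, RXRA in BT474R gave -0.20 ± 0.07 at 12 h and -0.15 ± 0.07 at 24 h, and neither passed (edgeR adjusted p = 0.111 and 0.327).

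RARB and RARG are the other two retinoic acid receptors. RARB ranged from 1.29 to 2.66 CPM over the 20 libraries of BT474 and from 2.97 to 5.22 CPM in BT474R. Its log2 fold change was below 0 in each of the 11 tested ligand comparisons, also with the size factors of DESeq2, but none passed. EGF and HRG at 1 time point share vehicle libraries, so these signs are not independent. How many of all genes kept 1 sign was not counted. The values ran from -0.52 with HRG at 24 h in BT474 to -0.04 with HRG at 1 h in BT474. At 24 h in BT474 the HRG libraries, at 1.51 and 1.93 CPM, lay under vehicle at 2.12 and 2.66 (edgeR adjusted p = 0.0621). RARG ranged from 19.9 to 29.6 CPM in BT474 and from 12.3 to 24.3 CPM in BT474R. In BT474 at 1 h its HRG libraries, at 27.3 and 26.4 CPM, lay above vehicle at 22.4 and 21.3 (log2 0.29 ± 0.09, edgeR adjusted p = 0.0665). That difference passed under 4 of the other settings (edgeR adjusted p from 0.0180 to 0.0433).

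**Figure D3:**
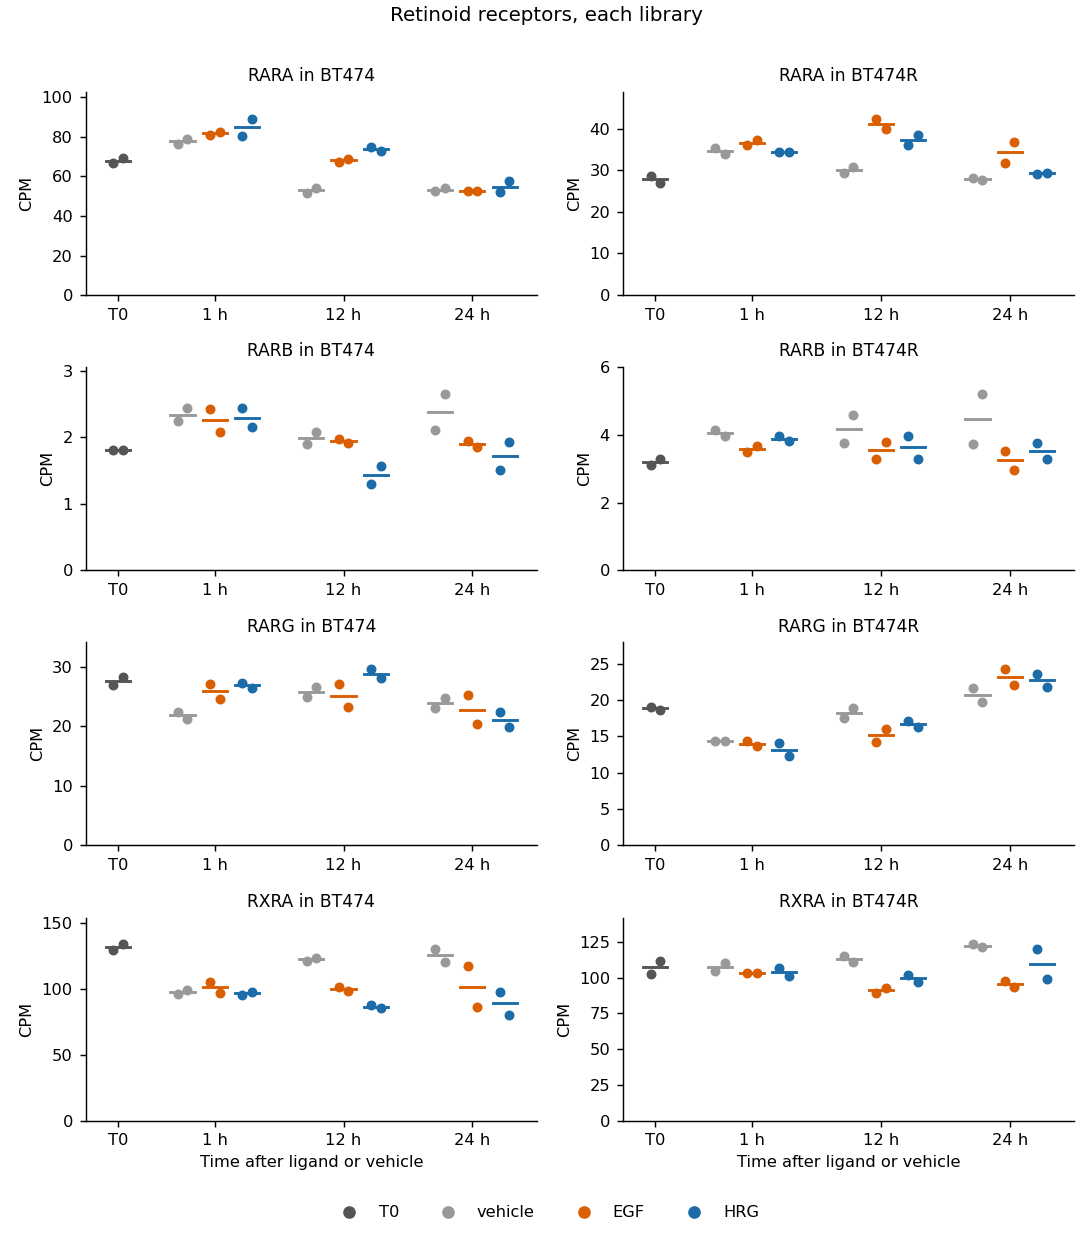
CPM of RARA, RARB, RARG and RXRA (rows) in every library of BT474 (left) and BT474R (right) by time after ligand or vehicle, with T0 first. Points are the 2 libraries of a group, horizontal lines their mean, and each panel has its own scale from 0. RARA is higher with ligand at 12 h in both lines, and RXRA is lower with EGF at 12 h and 24 h in both lines.

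CRABP2, which delivers retinoic acid to RARs in the nucleus, rose with EGF at 12 h and 24 h in both lines. In BT474 the vehicle libraries at 12 h held 63.9 and 59.4 CPM, EGF 73.2 and 76.0 and HRG 78.5 and 80.3, log2 0.26 ± 0.05 for EGF (edgeR adjusted p = 4.18e-04) and 0.34 ± 0.05 for HRG, untested. At 24 h vehicle held 60.2 and 61.2 CPM, EGF 80.7 and 80.3 and HRG 88.2 and 83.5 (log2 0.40 ± 0.05 and 0.48 ± 0.05, edgeR adjusted p = 3.45e-07 and 3.02e-09). The groups did not overlap at either time. In BT474R, from a lower level, the log2 fold changes with EGF were higher, while that with HRG at 24 h was alike (0.49 against 0.48). Vehicle held 11.8 and 12.7 CPM at 12 h, EGF 22.9 and 20.1 and HRG 17.8 and 20.4 (log2 0.81 ± 0.14 and 0.62 ± 0.14, edgeR adjusted p = 4.31e-04 and 0.0127). The HRG call was lost without vehicle replicate 1 (log2 0.59, edgeR adjusted p = 0.116) or HRG replicate 2 (log2 0.55, edgeR adjusted p = 0.157). At 24 h vehicle held 13.1 and 16.3 CPM, EGF 24.7 and 28.3 and HRG 17.4 and 23.4. EGF gave log2 0.86 ± 0.14 (edgeR adjusted p = 1.26e-04), and HRG, whose libraries were among the least alike of the series, gave 0.49 ± 0.14 (edgeR adjusted p = 0.0698; DESeq2 adjusted p = 0.0493). The EGF effect at 12 h was larger in BT474R than in BT474 by log2 0.54 ± 0.14 (edgeR adjusted p = 0.0392), where 1.96% of all genes passed.

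CRABP1, the other binding protein, was scarce. It had 2 to 17 counts per library in BT474 and 2 to 25 in BT474R, and passed only in EGF-BT474R. There EGF libraries held 23 and 25 counts (0.903 and 1.17 CPM) at 12 h against 10 and 9 (0.443 and 0.307 CPM) in vehicle, and 14 and 18 counts (0.611 and 0.732 CPM) at 24 h against 2 and 6 (0.0769 and 0.282 CPM). The log2 fold changes were 1.47 ± 0.40 and 1.95 ± 0.51 (edgeR adjusted p = 0.0177 and 0.00991). The call at 12 h was lost without vehicle replicate 2 (log2 1.23, edgeR adjusted p = 0.165) or EGF replicate 2 (log2 1.29, edgeR adjusted p = 0.143). That at 24 h was lost without vehicle replicate 1 (log2 1.24, edgeR adjusted p = 0.205) or EGF replicate 2 (log2 1.82, edgeR adjusted p = 0.0707), and without vehicle replicate 2 the difference was 3.06 (edgeR adjusted p = 0.00428).

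STRA6, the retinol transporter and itself a retinoic acid responsive gene, had 0 to 9 counts per library in BT474 and 13 to 184 in BT474R. In BT474R at 24 h the EGF libraries held 4.97 and 7.49 CPM, the HRG libraries 2.05 and 3.71 and the vehicle libraries 0.845 and 2.59. The EGF libraries lay above all others of the line, while those of HRG and vehicle overlapped. STRA6 rose 3.76-fold with EGF (log2 1.91 ± 0.31, edgeR adjusted p = 1.34e-04). The size of this rise turned on the vehicle libraries, at log2 1.27 without replicate 1 and 2.89 without replicate 2 (edgeR adjusted p = 0.00616 and 4.51e-06). The HRG difference was log2 0.81 ± 0.35 (edgeR adjusted p = 0.278; without vehicle replicate 2, log2 1.78, edgeR adjusted p = 0.00808; without HRG replicate 1, log2 1.16, edgeR adjusted p = 0.0330). At 12 h the EGF libraries held 1.41 and 1.68 CPM against 0.576 and 0.852 in vehicle (log2 1.07 ± 0.43, edgeR adjusted p = 0.125). The table also holds a row named STRA6_1, at 0 to 66 counts, whose place in the genome is not given, and adding it to STRA6 kept all 3 calls of STRA6.

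**Figure D4:**
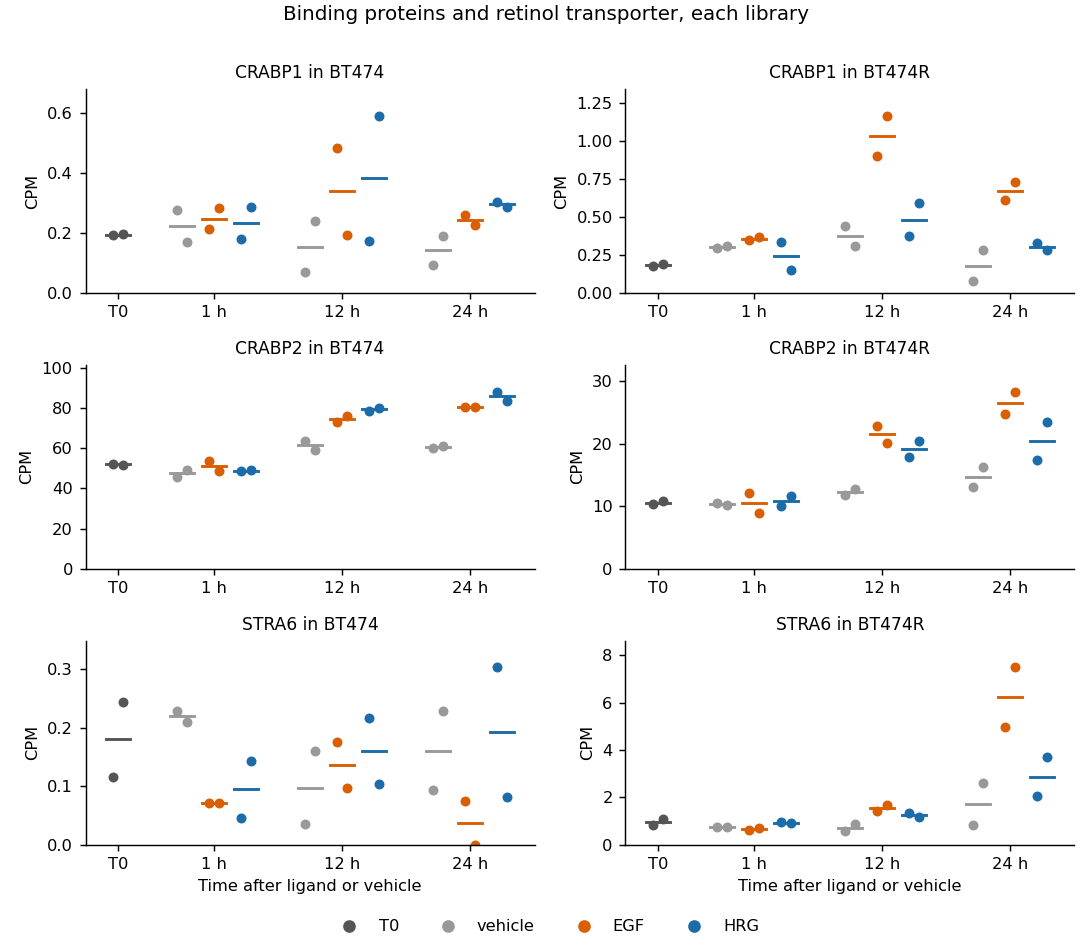
CPM of CRABP1, CRABP2 and STRA6 (rows) in every library of BT474 (left) and BT474R (right) by time after ligand or vehicle, with T0 first. Points are the 2 libraries of a group, horizontal lines their mean, and each panel has its own scale from 0. CRABP2 is higher with either ligand at 12 h and 24 h in both lines, and STRA6 in BT474R is highest with EGF at 24 h.

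The ligands were also compared with each other. In BT474 at 24 h, 1 of the 10 genes passed, where 0.768% of all genes did: DHRS3 was higher with HRG than with EGF (log2 0.60 ± 0.14, edgeR adjusted p = 0.0286). In BT474R at 24 h, 2 of 10 passed, where 5.18% did, and both were lower with HRG: DHRS3 (log2 -0.43 ± 0.11, edgeR adjusted p = 0.0234) and STRA6 (log2 -1.10 ± 0.29, edgeR adjusted p = 0.0262). None of the 3 held in every setting. In BT474, DHRS3 lost its call without EGF replicate 2 (log2 0.50, edgeR adjusted p = 0.103) or HRG replicate 1 (0.54, edgeR adjusted p = 0.158). In BT474R the same held without EGF replicate 2 for DHRS3 (-0.31, edgeR adjusted p = 0.319) and STRA6 (-0.78, edgeR adjusted p = 0.358), and without HRG replicate 1 (-0.26 and -0.76, edgeR adjusted p = 0.177 and 0.142). At 1 h in either line and at 12 h in BT474R, edgeR called 0 of 10, DESeq2 called 0, and 0, 0 and 2 had an unadjusted p under 0.05, where 0.139%, 0.0494% and 1.42% of all genes passed.

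Several of these genes differed between T0 and vehicle. Vehicle was given in fresh medium and T0 cells were collected before that change, so its effect and that of time cannot be told apart. In BT474 at 1 h, 4 of 10 passed against T0, where 6.61% of all genes did. RARA (log2 0.21 ± 0.05) and DHRS3 (0.78 ± 0.19) were higher, and RARG (-0.33 ± 0.09) and RXRA (-0.42 ± 0.08) lower (edgeR adjusted p = 0.0122, 0.00644, 0.0149 and 2.00e-04). RXRA held 129 and 134 CPM at T0 and 95.9 and 99.3 in vehicle at 1 h, and kept its call with each library left out. The other 3 did not: DHRS3 was lost without T0 replicate 2 or vehicle replicate 2 (edgeR adjusted p = 0.0850 and 0.0815), RARA without T0 replicate 1 or either vehicle library (edgeR adjusted p = 0.242, 0.0535 and 0.171), and RARG without T0 replicate 2 or either vehicle library (edgeR adjusted p = 0.176, 0.0514 and 0.162). In BT474R at 1 h, 2 of 10 passed, where 2.24% of all genes did, again RARA upward (0.32 ± 0.07) and RARG downward (-0.39 ± 0.09, edgeR adjusted p = 0.0189 and 0.0288). Neither call in BT474R held when any 1 of the 4 libraries was left out (edgeR adjusted p from 0.0944 to 0.262). At 12 h, 2 of 9 passed in BT474, where 6.41% did, and at 24 h 2 of 10, where 11.4% did: RARA was lower (-0.36 ± 0.06 and -0.35 ± 0.06) and CRABP2 higher (0.24 ± 0.05 and 0.23 ± 0.06; edgeR adjusted p = 0.00303 and 0.00443). At 12 h CRABP2 was not called without vehicle replicate 1 (0.20, edgeR adjusted p = 0.120). In BT474R, edgeR called 0 of 10 at 12 h, DESeq2 called 0, and 2 had an unadjusted p under 0.05, where 1.13% of all genes passed. At 24 h, where 13.7% did, DHRS3 was lower as given above and CRABP2 higher (0.48 ± 0.16, edgeR adjusted p = 0.0464; without vehicle replicate 2, T0 replicate 1 or T0 replicate 2, 0.31, 0.45 and 0.52, edgeR adjusted p = 0.324, 0.203 and 0.142).

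The lines differed in this pathway before any ligand. At T0, 9 of the 10 genes passed between BT474R and BT474, 4 higher and 5 lower in BT474R, in a comparison where 46.9% of all genes passed (25.1% up, 21.7% down). DHRS3 was 10.9-fold higher in BT474R, at 24.3 and 26.5 CPM against 2.47 and 2.15 (log2 3.45 ± 0.16, edgeR adjusted p = 2.14e-20). CRABP2 was 4.92-fold lower, at 10.3 and 10.8 CPM against 52.4 and 51.6 (log2 -2.30 ± 0.11, edgeR adjusted p = 3.89e-19). CYP26A1 had 1 count over the 2 T0 libraries of BT474R and 59 over those of BT474, a ratio of 48.5 in favour of BT474 with a 95% counting interval of 8.36 to 1946. CYP26B1 went the other way with 8 counts against 1, a ratio of 9.74 (95% counting interval 1.31 to 432), and its call was lost with DESeq2 (DESeq2 adjusted p = 0.0983) and without T0 replicate 1 of either line (edgeR adjusted p = 0.199 and 0.255). These intervals cover counting error only. RARA was 2.44-fold lower in BT474R, RARG 1.46-fold and RXRA 1.23-fold lower (log2 -1.29 ± 0.07, -0.55 ± 0.10 and -0.29 ± 0.09, edgeR adjusted p = 9.50e-19, 7.25e-06 and 0.00468). RARB was 1.77-fold and STRA6 5.47-fold higher (log2 0.82 ± 0.20 and 2.45 ± 0.64, edgeR adjusted p = 7.54e-04 and 0.00154). CRABP1, at 3 and 4 counts against 5 and 4, gave log2 -0.08 ± 0.74 (edgeR adjusted p = 0.943). Per length of the annotated transcript, CRABP2 was the highest of the 10 in BT474 (53.4 ± 0.514 CPM per kb, SD, n = 2), followed by RXRA (23.8 ± 0.570) and RARA, while in BT474R RXRA was highest (19.4 ± 1.13), followed by DHRS3 (11.5 ± 0.703) and CRABP2 (10.8 ± 0.322), which do not differ beyond their spread.

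**Figure D5:**
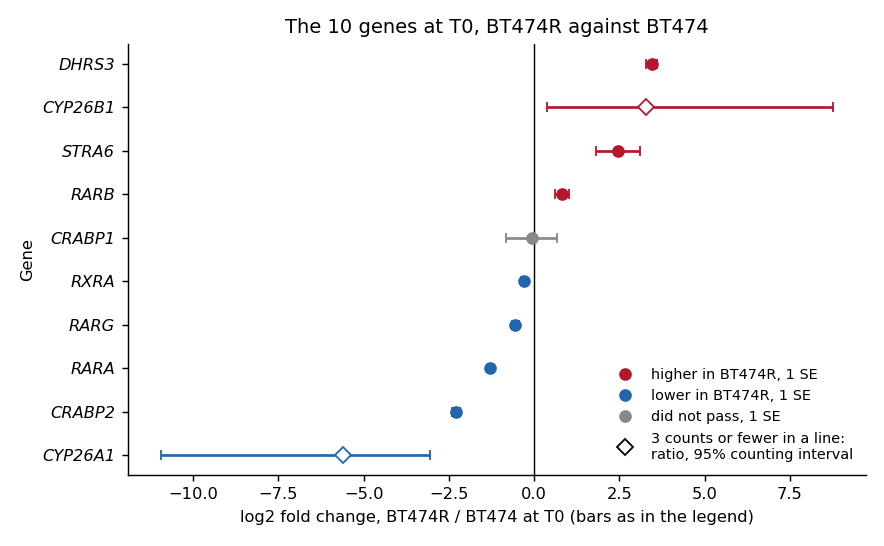
Log2 fold change of the 10 genes between BT474R and BT474 at T0, with 2 libraries per line. Filled circles are estimates of edgeR with 1 standard error, coloured where the adjusted p was under 0.05, and open diamonds are ratios of summed counts with 95% counting intervals for the 2 genes with 3 counts or fewer in a line. DHRS3, CYP26B1, STRA6 and RARB lie above 0, CRABP1 at 0, and RXRA, RARG, RARA, CRABP2 and CYP26A1 below it.

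The ligand effects were also compared between the lines. At 24 h, the EGF effect on RARA was larger in BT474R by log2 0.33 ± 0.09 (edgeR adjusted p = 0.0308), and edgeR called 1 of 10 where 4.01% of all genes passed. DESeq2 called 3 of 10 there, which were RARA, CRABP2 and STRA6 (DESeq2 adjusted p = 0.0187, 0.0318 and 0.0473), the last with 3 counts or fewer in an EGF group of BT474. The HRG effect on DHRS3 differed by log2 -1.09 ± 0.23 (BT474R minus BT474, edgeR adjusted p = 0.00302), also 1 of 10, where 3.33% did. With the vehicle replicate 1 of BT474 left out, that difference was -0.88 (edgeR adjusted p = 0.0558). The call of RARA held only without EGF replicate 1 of BT474R or EGF replicate 2 of BT474 (otherwise edgeR adjusted p from 0.0613 to 0.329). That of CRABP2 at 12 h, given above, held only without EGF replicate 2 of BT474R (otherwise edgeR adjusted p from 0.0562 to 0.325). At 1 h, edgeR called 0 of 10 for either ligand, DESeq2 called 0, and 1 had an unadjusted p under 0.05 in each, where 0.138% (EGF) and 0.544% (HRG) of all genes passed. For CRABP2 with EGF at 24 h the difference between the lines was 0.46 ± 0.14 (edgeR adjusted p = 0.0626), and for RXRA with HRG at 24 h 0.33 ± 0.12 (edgeR adjusted p = 0.151). Within BT474R, the rise of the EGF effect on DHRS3 from 12 h to 24 h was called (1.38 ± 0.17, edgeR adjusted p = 2.52e-04, 0.185% of all genes), and that of the HRG effect was 0.90 ± 0.17 (edgeR adjusted p = 0.0701, 0.0288% of all genes; DESeq2 adjusted p = 0.00560).

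The rest of the pathway was read from a list of 50 other retinoid genes, of which 41 passed the filter on low counts in BT474 and 40 in BT474R. The list was chosen with earlier results of these data known, so its shares called are a description. Of 7 genes of retinoic acid synthesis tested, 2 to 3 rose and 0 to 1 fell in each tested ligand comparison at 12 h and 24 h. The share of all genes called in these comparisons, in either direction, ran from 2.78% (HRG-BT474R at 24 h) to 24.1% (HRG-BT474 at 24 h). ALDH1A3 rose and ALDH1A1 fell in nearly all of the tested ligand comparisons at 12 h and 24 h. With EGF at 12 h in BT474, ALDH1A3 held 8.41 and 9.70 CPM against 2.59 and 2.52 in vehicle (log2 1.81 ± 0.16, edgeR adjusted p = 2.90e-11). With HRG at 24 h in BT474, ALDH1A1 held 1.82 and 1.39 CPM against 5.64 and 5.28 (log2 -1.76 ± 0.17, edgeR adjusted p = 8.73e-11), and with EGF at 24 h in BT474R 2.62 and 1.83 against 8.99 and 8.32 (log2 -1.97 ± 0.18, edgeR adjusted p = 4.11e-08). The exception was HRG-BT474R at 12 h, where ALDH1A1 gave -0.46 ± 0.14 (edgeR adjusted p = 0.0829). In HRG-BT474R at 24 h the rise of ALDH1A3 was called (log2 0.56 ± 0.11, edgeR adjusted p = 0.00588), but not without HRG replicate 2 or vehicle replicate 1. RDH10, which oxidizes retinol to retinaldehyde and so works against DHRS3, also rose in each tested ligand comparison at 12 h and 24 h. With EGF at 12 h in BT474R it held 240.2 and 246 CPM against 85.3 and 83.6 (log2 1.52 ± 0.06, edgeR adjusted p = 3.92e-13), and with HRG at 24 h in BT474R 90.5 and 91.0 against 64.1 and 67.8 (log2 0.47 ± 0.06, edgeR adjusted p = 2.24e-04).

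Of the list, 10 of 41 genes passed in EGF-BT474 at 12 h, of which 7 were higher and 3 lower with ligand (24.4% of the list against 16.0% of all genes). At 24 h, 7 were higher and 2 lower in EGF-BT474 (22.0% against 16.4%), and 9 higher and 8 lower in HRG-BT474 (41.5% against 24.1%). In BT474R, 7 of 40 were higher and 5 lower with EGF after 12 h (30.0% against 12.0%), and 10 higher and 5 lower after 24 h (37.5% against 17.3%). With HRG, 6 were higher and 0 lower after 12 h in BT474R (15.0% against 4.12%), and 3 higher and 1 lower after 24 h (4 of 40 against 2.78%). The median log2 fold change of the list stayed between -0.13 and 0.08 in these comparisons, and that of all genes between -0.03 and 0.01. Of 10 genes of this list known to respond to retinoic acid and tested in BT474, 3 were called higher with EGF at 12 h. With EGF and with HRG at 24 h it was 3 each. Of 11 tested in BT474R, 4 and 5 were higher with EGF at 12 h and 24 h, and 3 and 1 with HRG. The shares of all genes called are given above. More of all genes were called higher than lower too, as with EGF at 24 h in BT474R (2417 against 1791). Among the responsive genes that passed, 1 was lower with ligand. This was LAMB1, a laminin chain, with HRG in BT474 at 24 h (log2 -0.22 ± 0.04, edgeR adjusted p = 1.22e-04), named after its value was seen. The list leaves out the genes described first, whose known targets went both ways. In BT474 at 24 h, DHRS3 was called higher with either ligand, as given above. CYP26A1 was called lower with either ligand, but its call was lost in 3 of 4 (EGF) and 2 of 4 (HRG) fits with 1 library left out. RARRES1, named for its induction by retinoids, held 23.2 and 19.3 CPM with HRG at 24 h in BT474 against 7.29 and 7.17 in vehicle (log2 1.54 ± 0.11, edgeR adjusted p = 2.95e-14). BHLHE40, a transcriptional repressor of the circadian clock, held 227 and 249 CPM with EGF at 24 h in BT474R against 70.0 and 108 (log2 1.42 ± 0.17, edgeR adjusted p = 3.10e-06). TGM2, a transglutaminase induced by retinoic acid and also chosen after its values were seen, held 2.49 and 2.48 CPM with EGF at 24 h in BT474R and 0 and 0.0941 CPM, at or under the floor of detection, in vehicle (edgeR adjusted p = 1.70e-06). Among genes that fell, the endocytic receptor LRP2 held 24.7 and 26.0 CPM with EGF at 12 h in BT474R against 66.3 and 58.1 (log2 -1.29 ± 0.22, edgeR adjusted p = 2.28e-04), and the coactivator NCOA2 gave -0.24 ± 0.05 and -0.36 ± 0.05 with EGF at 12 h and 24 h in BT474 (edgeR adjusted p = 1.85e-04 and 1.80e-07). FABP5, a carrier that can hand retinoic acid to PPARD, fell with HRG at 24 h in BT474 (log2 -0.70 ± 0.24, edgeR adjusted p = 0.0314; DESeq2 adjusted p = 0.104). Its call was lost without either HRG library or vehicle replicate 1 (edgeR adjusted p = 0.192, 0.0523 and 0.208). At 1 h in HRG-BT474, edgeR called 1 gene of the list, 2.4% of it against 2.77% of all genes, and DESeq2 called 2. The gene called by edgeR was the corepressor NRIP1 (112 and 111 CPM against 94.7 and 101, log2 0.18 ± 0.05, edgeR adjusted p = 0.0247). Its call was lost without either HRG library or vehicle replicate 1. For the other 3 tested comparisons at 1 h, edgeR called 0 of the list, DESeq2 0, and 1 (EGF-BT474), 5 (EGF-BT474R) and 1 (HRG-BT474R) had an unadjusted p under 0.05. The shares of all genes called by edgeR there were 2.19%, 0.457% and 0.169% in the same order.

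At T0, 26 of 43 genes of the list passed between the lines (14 higher and 12 lower in BT474R), 60.5% of the list where 46.9% of all genes passed. In BT474R, RDH10 held 88.1 CPM against 11.7 in BT474 (group means, log2 2.91 ± 0.07, edgeR adjusted p = 6.74e-28), BHLHE40 40.6 against 6.47 (log2 2.66 ± 0.22, edgeR adjusted p = 8.10e-13) and ALDH1A3 12.1 against 3.68 (log2 1.71 ± 0.15, edgeR adjusted p = 1.54e-12). RARRES1 was lower, at 4.70 against 10.5 CPM (log2 -1.15 ± 0.15, edgeR adjusted p = 4.10e-08).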

How the data were processed

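RNA of 40 samples was measured by mRNA sequencing (RNeasy extraction, Kapa mRNA HyperPrep libraries). The authors trimmed reads with Trim Galore 0.6.6, checked them with FastQC and MultiQC, aligned them to GRCh38.p13 and counted them per gene with featureCounts of Rsubread, and deposited 1 table of raw counts per gene. How reads with several matches were treated, whether strand was used and which annotation release served are not given in the sources used here. The table has 44584 rows, of which 5078 bear a name with a number added for a repeated symbol, and members were matched by exact name.

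From these counts, edgeR 4.0.16 (R 4.3.3) fitted 1 quasi-likelihood model per line, 20 libraries each, with TMM scaling, after keeping genes with at least 1 count in 50% of libraries (25146 genes in BT474, 24287 in BT474R). A fit of all 40 libraries (24641 genes) compared the lines. Every p was adjusted by Benjamini-Hochberg over all genes of the fit, with a threshold of 0.05. The script was tested on simulated data, with large changes in well-counted genes of 1 BT474 comparison. That test did not cover smaller changes or genes at low counts. Total counts of 16794594 to 33387936 per library set the precision, and counting intervals cover counting error only. Alternatives were DESeq2 1.42.0, other size factors and filters, fewer or more libraries in a fit, a replicate block and each library left out.

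The members and gene lists were chosen with earlier results of these data known, and contrasts used by the choice of members carry no test. That does not free the shares of the list from the choice, so they are a description. Besides the members, up to 2 list genes per direction and ligand comparison were named by largest log2 fold change among called genes with a mean of at least 1 CPM and no overlap of libraries, and for DHRS3 the 5 genes with the highest correlation of group means. CYP26A1 had a mean under 1 CPM in each line and got no such list.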

Additional observations from a re-analysis of the deposited data

Results flagged for a closer look

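All results here were singled out because 2 effects differed in a test of the difference itself (the quasi-likelihood test of edgeR, with p adjusted over all genes by Benjamini-Hochberg). From 12 h to 24 h, the log2 effect of EGF on DHRS3 grew in BT474 (1.82 ± 0.28, edgeR adjusted p = 2.73e-04) and in BT474R (1.38 ± 0.17, edgeR adjusted p = 2.52e-04), while that on RARA shrank in BT474 (-0.38 ± 0.08, edgeR adjusted p = 0.0123; lost in 3 of 8 fits with 1 library left out). Between the lines, taken as BT474R minus BT474, the effect of EGF at 12 h differed for CRABP2 (0.54 ± 0.14, edgeR adjusted p = 0.0392), and at 24 h for RARA (0.33 ± 0.09, edgeR adjusted p = 0.0308), calls lost in 7 of 8 and 6 of 8 fits with 1 library left out. The effect of HRG at 24 h differed for DHRS3 (-1.09 ± 0.23, edgeR adjusted p = 0.00302; lost in 1 of 8).

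Among the other retinoid genes, the effect of EGF at 12 h was higher in BT474R for RDH10 (0.86 ± 0.10, edgeR adjusted p = 2.46e-07) and lower for LRP2 (-1.15 ± 0.24, edgeR adjusted p = 0.00335) and ALDH1A3 (-0.85 ± 0.19, edgeR adjusted p = 0.00801). At 24 h it was higher for RDH10 (0.77 ± 0.10, edgeR adjusted p = 1.71e-06) and FABP5 (2.36 ± 0.68, edgeR adjusted p = 0.0371), and lower for LRP2 (-1.03 ± 0.23, edgeR adjusted p = 0.00366) and ALDH1A1 (-0.88 ± 0.24, edgeR adjusted p = 0.0262). FABP5 itself was not called with EGF at 24 h in either line, so its difference lies between effects that did not pass. The effect of HRG at 24 h was lower in BT474R for RARRES1 (-1.47 ± 0.21, edgeR adjusted p = 1.60e-05), ALDH1A3 (-0.85 ± 0.19, edgeR adjusted p = 0.00685) and RDH10 (-0.49 ± 0.10, edgeR adjusted p = 0.00220), and higher for NCOA2 (0.31 ± 0.07, edgeR adjusted p = 0.00524). The HRG libraries of BT474R at 24 h were the least alike of all pairs, and their part in these differences was not tested. How far these differences of the other retinoid genes rest on 1 library is not given here.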

How the results depend on the processing

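Of 54 called results of the 10 genes, 40 kept their call in every alternative other than leaving out a library, 29 kept it with each library left out, and 0 changed sign in any setting run. Calls were lost for 10 of 54 when only the groups compared were fitted, 5 of 42 in 1 fit of both lines, 4 of 52 with DESeq2 and 2 of 54 with no filter, and for 0 with the size factors of DESeq2, filterByExpr or the replicate block. Adding the copy row to STRA6, chosen after seeing the data, kept 3 of 3. The number of genes called in HRG-BT474 at 1 h went from 0 to 1 (RARG) with the size factors of DESeq2, no filter, the replicate block and only the groups compared. In HRG-BT474R at 12 h it was 1 with only the groups compared, and at 24 h it was 2 in 1 fit of both lines, 2 with DESeq2, 3 with no filter and 0 with only the groups compared. With 1 library left out, the number called ranged from 2 to 4 in EGF-BT474 at 24 h (2 without EGF replicate 2), from 0 to 2 in HRG-BT474R at 12 h (0 without vehicle replicate 1 or HRG replicate 2) and from 1 to 4 in HRG-BT474R at 24 h (4 without HRG replicate 1, 3 without vehicle replicate 2). The cause was not tested. In the fit of 40 libraries, leaving out a library reused the dispersions of the full fit. Replicate numbers were used only to name samples. Deviations of ligand and vehicle libraries with the same number correlated with r from -0.09 to 0.38 across genes. The correlation was highest for HRG-BT474R at 24 h (0.38) and next for HRG-BT474 at 24 h (0.26). The replicate block changed no call of the 54. Its term was common to all time points of a fit, so a pairing at 24 h alone was not tested. Depth limits CYP26B1, CRABP1, STRA6 in BT474 and CYP26A1 in BT474R, at a few counts per library.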
